A study of Mus musculus with 19 samples.

Results

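The subject is 8 genes that set how freely the myogenic regulators can act in muscle precursors. They comprise the E protein genes Tcf3, Tcf12 and Tcf4, the Id genes Id1, Id2 and Id3, and the inhibitor genes Twist1 and Msc. They were chosen by name, and make up 8 of the 35598 genes counted. Of the 8, 7 passed the filter on low counts, which 15123 genes of the series passed. Msc, which encodes the repressor musculin, held 0 to 10 estimated counts in a library and was not tested.

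RNA was measured in 19 libraries of primary myoblasts from mouse hind-limb muscle. Libraries labelled WT covered myoblasts after 24 h in growth medium (n = 3), differentiated myotubes at 48 h (n = 3) and fused myotubes at 72 h (n = 4). Libraries labelled Glud1-deficient, called KO-labelled here, covered the same stages with 3, 2 and 4 libraries. The names of the deposited data mark both groups as KO and add a T to the KO-labelled ones, with no meaning stated. The labels name neither the deleted allele nor a Cre driver, and no other agent or allele is given for either group. Replicates are labelled as biological without a statement on animals or cultures, so every p-value measures the spread between these libraries, which may be technical.

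Muscle determination factors of the basic helix-loop-helix (bHLH) family, such as MyoD and myogenin, bind DNA at E-box motifs as dimers with an E protein. Id proteins have the dimerization helices but no DNA-binding region, and they sequester E proteins. Twist1 and musculin inhibit myogenic bHLH factors by competing for E proteins or for E-boxes. Id genes are classical targets of bone morphogenetic protein (BMP) signalling through Smad proteins.

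Libraries held 16168131 to 30742634 estimated counts. Glud1 RNA did not separate the genotype labels: it was at 184 to 192 CPM (counts scaled to a common library size by edgeR's TMM factors) in the 6 myoblast libraries, and the edgeR adjusted p of the label difference was 0.193 to 0.849 over the stages. The direction drawn from the KO label therefore rests on the label alone. All 8 myogenic markers had a mean above 1 CPM in every group. The fibroblast list of 8 genes summed to 1.30 to 9.18 CPM, with Dpt at 0 in all libraries. The 6 endothelial markers summed to at most 1.30 CPM, the 4 glial markers to at most 2.74 CPM and the 3 adipocyte markers to at most 0.0704 CPM. The 6 pericyte or smooth muscle markers summed to 46.1 to 62.8 CPM in myoblasts and 170 to 184 CPM in fused myotubes. Abcc9 carried that sum in fused myotubes (mean 170 CPM in WT, against 2.28 in WT myoblasts), while Rgs5 went from 38.7 to 0.110 CPM and Notch3 from 16.3 to 1.67 CPM, and Kcnj8 was at 0 in differentiated and fused libraries. The 6 macrophage or leukocyte markers summed to 1.76 to 2.11 CPM in WT myoblasts, 15.7 to 18.6 in WT differentiated and 8.63 to 10.4 in WT fused myotubes, where Itgam was the 1 gene with a mean of at least 1 CPM in the later stages. The part of these markers in the stage changes was not tested. In whole cultures, fewer cells of a type and less RNA per cell cannot be told apart.

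The level of the set turned over during differentiation: RNA of all 3 Id genes, Tcf3, Tcf12 and Twist1 fell from WT myoblasts to WT fused myotubes, while Tcf4 rose. Changes were tested with edgeR's quasi-likelihood F-test, p-values were adjusted by Benjamini and Hochberg's method over the 15123 genes, and a change was called at an adjusted p under 0.05. Between WT myoblasts and WT fused myotubes, 1 of the 7 tested members rose and 6 fell, where 85.5% of all genes tested were called, 42.2% as higher and 43.4% as lower. At this background a count of 7 calls in 7 says little, and the sizes carry the description. The median log2 fold change of the 7 was -2.50, against -0.0126 over all genes tested. The median size of a change regardless of sign was 1.04 over all genes, so the changes of Tcf12 (-0.99) and Tcf4 (1.06) were of ordinary size for this comparison. All 6 genes of a proliferation list fell too, with a median log2 fold change of -7.77 over this course and -5.30 from WT myoblasts to WT differentiated myotubes, and their part in the members' changes was not tested.

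**Figure D1:**
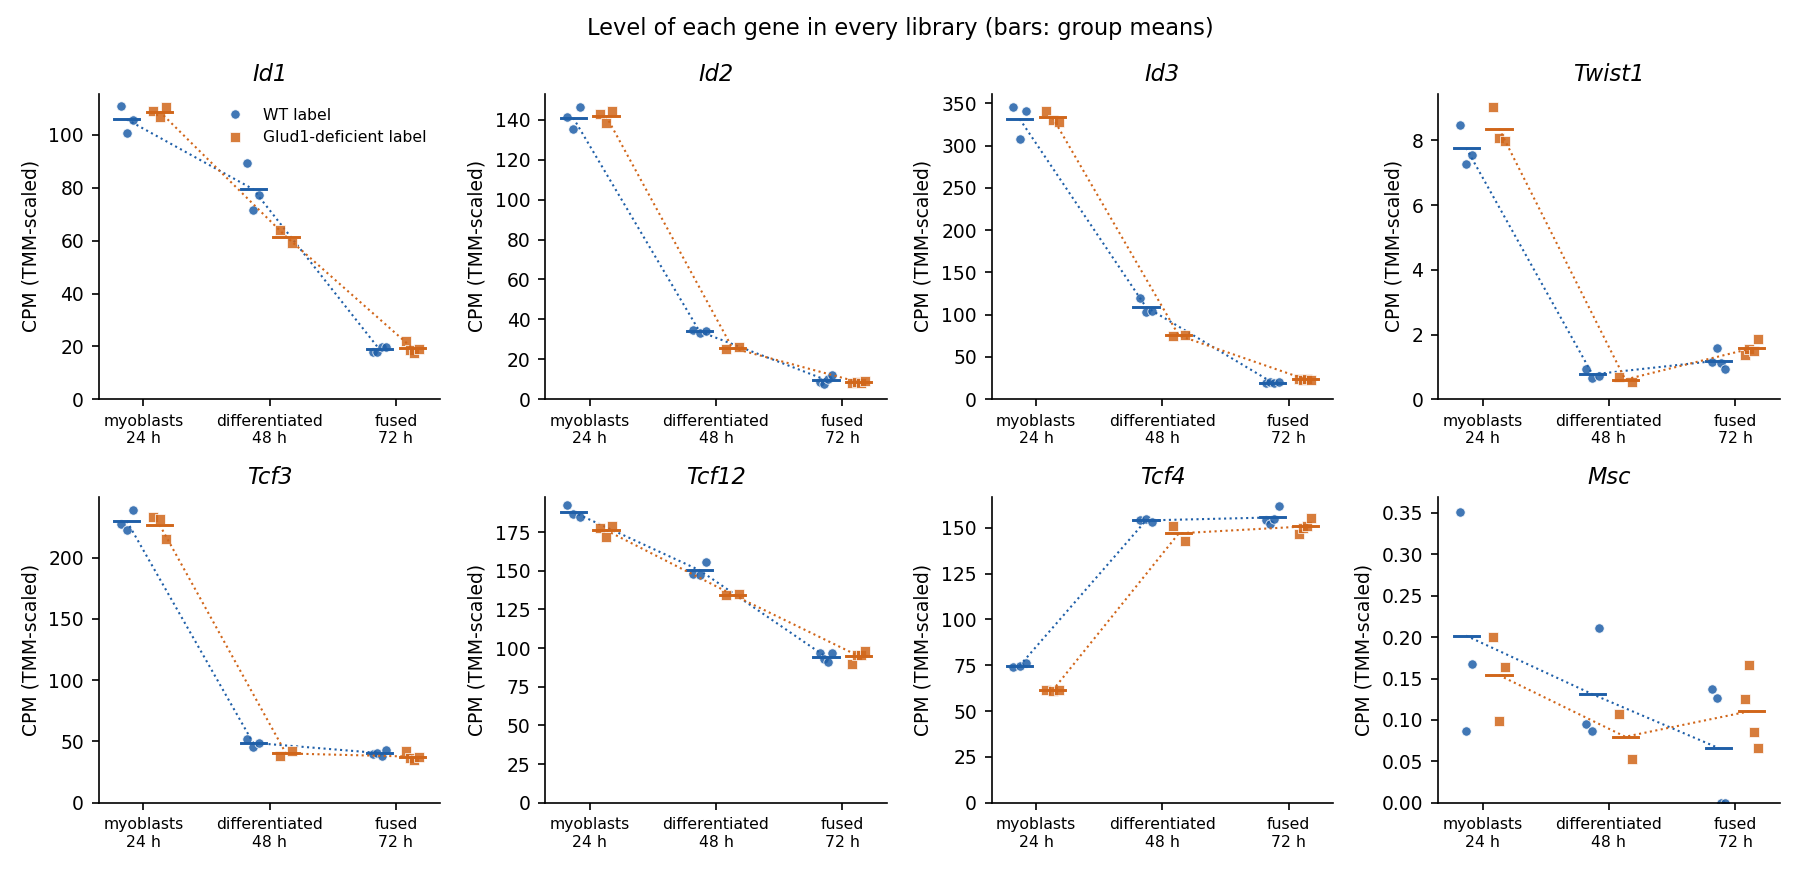
TMM-scaled CPM (vertical axis, linear from 0) of the 8 genes in each of the 19 libraries, by stage (horizontal axis). Circles are WT and squares KO-labelled libraries, short bars are group means and dotted lines join them. Id3 runs from 331 CPM in WT myoblasts to 19.8 in WT fused myotubes, while Tcf4 runs from 74.8 to 156.

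Id3 had the largest fall of the Id genes over the whole course in WT. The WT myoblast libraries held 345, 308 and 341 CPM of Id3, the WT differentiated libraries 119, 103 and 105, and the 4 WT fused libraries 18.8 to 20.9. No library of a later stage reached the lowest of the stage before. The log2 fold change was -1.61 ± 0.049 (SE) from myoblasts to differentiated myotubes and -2.46 ± 0.057 from differentiated to fused myotubes, a 16.7-fold fall in all (edgeR adjusted p 7.89e-30).

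Id2 fell by similar amounts in both steps. It was at 141, 135 and 146 CPM in WT myoblasts, at 34.5, 33.3 and 34.1 in WT differentiated myotubes, and at 8.81, 7.74, 10.4 and 11.9 in WT fused myotubes. The stages did not overlap. The 2 steps measured -2.05 ± 0.058 and -1.78 ± 0.075 on the log2 scale, and the whole course a 14.3-fold fall (edgeR adjusted p 1.63e-27).

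Id1 kept a higher level for longer. WT myoblasts held 111, 101 and 106 CPM, WT differentiated myotubes 89.4, 71.8 and 77.2, and WT fused myotubes 17.9, 18.0, 19.7 and 19.9. The groups did not overlap, but the first step was a 1.33-fold fall (log2 fold change -0.42 ± 0.060, edgeR adjusted p 3.79e-07) and the second a larger one (-2.07 ± 0.068, edgeR adjusted p 5.49e-20). In KO-labelled libraries the same 2 steps measured -0.82 ± 0.070 and -1.67 ± 0.079.

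Among the E protein genes, Tcf3 carried nearly all of its fall in the first step. Tcf3 encodes E12 and E47, E proteins that dimerize with MyoD. It was at 228, 222 and 239 CPM in WT myoblasts, at 52.2, 45.9 and 48.6 in WT differentiated myotubes, and at 40.2, 40.7, 38.5 and 42.8 in WT fused myotubes. The 3 stages did not overlap. The first step was -2.23 ± 0.054 on the log2 scale (edgeR adjusted p 9.80e-24) and the second -0.27 ± 0.057 (edgeR adjusted p 0.000174). In KO-labelled libraries the second step was -0.10 ± 0.070 (edgeR adjusted p 0.188) and the groups overlapped. That step passed the threshold with an offset for effective transcript length (-0.22, edgeR adjusted p 0.0201), after removal of a trend with length and GC content (-0.28), and without KO-labelled fused replicate 1 (-0.16, edgeR adjusted p 0.0383).

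Tcf12, which encodes the E protein HEB, fell least. WT libraries were at 193, 187 and 185 CPM, then at 148, 148 and 156, and then at 96.8, 92.9, 91.2 and 96.8. The fall was 1.99-fold over the whole course (log2 fold change -0.99 ± 0.035, edgeR adjusted p 4.61e-20), with the larger part in the second step (-0.67 ± 0.036). Annotated genes within Tcf12 on the same strand are 7 short models, the most abundant of them with a mean of 9.78 counts against 3292 for Tcf12.

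Tcf4, which encodes the E protein E2-2 and is not the Wnt effector that shares the alias TCF4, was the member that rose. It was at 73.9, 74.5 and 76.0 CPM in WT myoblasts, at 154, 155 and 153 in WT differentiated myotubes, and at 154, 152, 155 and 162 in WT fused myotubes. The first step was a 2.06-fold rise (log2 fold change 1.04 ± 0.036, edgeR adjusted p 2.60e-20). The differentiated and fused libraries overlapped (0.016 ± 0.032, edgeR adjusted p 0.659), and that difference was called only after removal of a trend with length and GC content (0.19). The KO-labelled libraries had the same order, with 60.7 to 61.7 CPM in myoblasts, 143 and 151 in differentiated and 147 to 155 in fused myotubes.

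Twist1 had the steepest first step. It was at 8.47, 7.26 and 7.55 CPM in WT myoblasts, at 0.949, 0.653 and 0.704 in WT differentiated myotubes, and at 1.14, 1.59, 1.11 and 0.948 in WT fused myotubes. The fall was 10.2-fold (log2 fold change -3.35 ± 0.16, edgeR adjusted p 5.76e-17). Twist1 then rose by 0.62 ± 0.22 on the log2 scale (edgeR adjusted p 0.0159), on 15 to 25 estimated counts a library and with overlapping groups. The later rise lost its call without WT differentiated replicate 2 or 3 or WT fused replicate 2 (edgeR adjusted p 0.0658 to 0.0886). In KO-labelled libraries the later rise was 1.35 ± 0.27 (edgeR adjusted p 8.38e-05) and the groups did not overlap.

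Counted by step, 1 of 7 members rose and 6 fell from WT myoblasts to WT differentiated myotubes, where 85% of all genes tested were called (42.4% higher, 42.6% lower). From WT differentiated to WT fused myotubes, 1 rose, 5 fell and 1 was not called, where 75.1% were called (37.4% higher, 37.7% lower). In the KO-labelled libraries the counts of risen, fallen and uncalled members were 1, 6 and 0 from myoblasts to differentiated myotubes (83.7% called, 41.3% higher and 42.5% lower). They were 1, 4 and 2 from differentiated to fused myotubes (70.2% called, 35.8% higher and 34.4% lower), and 1, 6 and 0 over the whole course (87.2% called, 42.7% higher and 44.5% lower). The total called was near the background in these comparisons, since most genes were called, while falls made up a larger share of the members than of all genes; that difference was not tested. Over the whole KO-labelled course, Id2 fell 16.6-fold, Id3 14.1-fold, Tcf3 6.05-fold, Id1 5.65-fold, Twist1 5.34-fold and Tcf12 1.86-fold, and Tcf4 rose 2.46-fold.

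Msc was at 0.0864 to 0.352 CPM in WT myoblasts, at 0.0871 to 0.211 in WT differentiated myotubes and at 0 to 0.137 in WT fused myotubes. At 0 to 10 estimated counts a library, no difference in Msc was detectable at this depth. When all genes were kept, the WT fused against myoblast difference of Msc had an edgeR adjusted p of 0.0649.

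TPM, which is scaled for transcript length, places the members on one scale. In WT myoblasts the order of mean TPM was Id3 (396), Id2 (250), Id1 (198), Tcf3 (113), Tcf12 (94.6), Tcf4 (25.5) and Twist1 (8.02), with no overlap between neighbours. In WT fused myotubes the order was Tcf4 (41.8), Tcf12 (36.7), Id1 (29.3), Id3 (20.3), Tcf3 (16.6), Id2 (14.4) and Twist1 (1.04). Of these neighbours only Tcf3 and Id2 overlapped. Msc lay last in every group, at 0.122 to 0.347 mean TPM.

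The E protein pool changed in makeup as it shrank. Summed TPM of Tcf3, Tcf12 and Tcf4 was 233 ± 2.99 (SD, n = 3) in WT myoblasts, 131 to 134 in the 3 WT differentiated libraries and 90.4 to 98.9 in the 4 WT fused ones. Tcf3 made up 48.6% ± 0.85 (SD, n = 3) of that sum in WT myoblasts and 17.4% ± 0.32 (SD, n = 4) in WT fused myotubes. Tcf4 moved the other way, from 10.9% ± 0.49 to 44.0% ± 0.052, and Tcf12 stayed between 38.3% and 47.5% in all WT libraries. These TPM sums were not rescaled by TMM factors. The factors were 1.147 to 1.161 in WT myoblast and 0.9146 to 0.9405 in WT fused libraries. The size of the fall therefore depends on the scaling, while shares within a library do not depend on it. Tcf4 was at 46.9 to 48.4 TPM in WT differentiated and 39.7 to 43.5 in WT fused libraries, without overlap. In TMM-scaled CPM those groups overlapped.

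**Figure D2:**
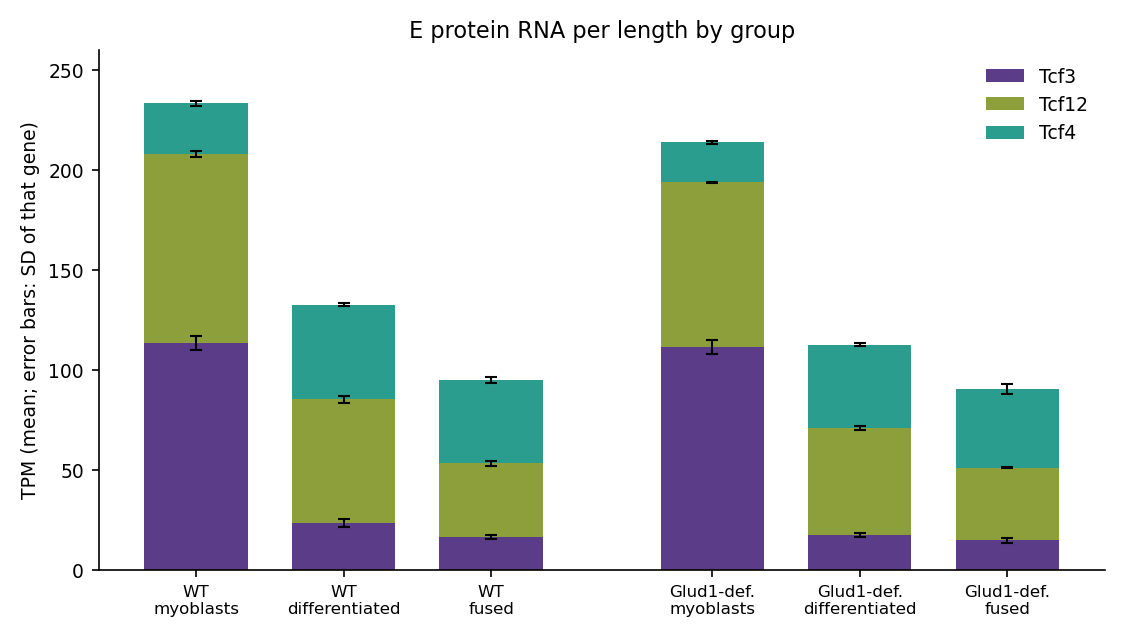
Stacked bars of mean TPM (vertical axis, linear from 0) of Tcf3, Tcf12 and Tcf4 in the 6 groups (horizontal axis), where each error bar is the SD of the gene whose segment it caps. The Tcf3 segment shrinks from 113 to 16.6 TPM between WT myoblasts and WT fused myotubes. The Tcf4 segment grows from 25.5 to 41.8 TPM. TPM was not rescaled by TMM factors.

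Summed Id TPM, with the low Id4 included, was set against summed E protein TPM in each library as a description without a test. The ratio was 3.69, 3.52 and 3.64 in WT myoblasts, 2.59, 2.25 and 2.27 in WT differentiated myotubes, and 0.641, 0.659, 0.727 and 0.733 in WT fused myotubes. In the KO-labelled libraries it was 3.94, 3.87 and 4.16, then 1.95 and 1.80, and then 0.770, 0.729, 0.707 and 0.717. Id RNA thus outnumbered E protein RNA per length in every myoblast and differentiated library and lay below it in every fused library. From summed estimated counts, which are not scaled for length, the mean ratio in WT was 1.18, 0.636 and 0.178, so the crossing of 1 moves to the first step.

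**Figure D3:**
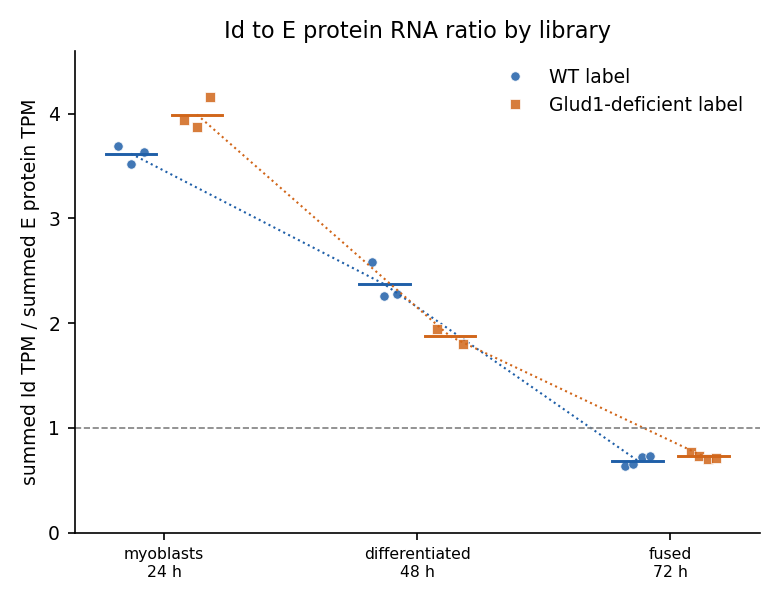
Ratio of summed Id TPM to summed E protein TPM (vertical axis) by library and stage (horizontal axis), with group means as short bars joined by dotted lines and a dashed line at equal amounts. The 2 KO-labelled differentiated libraries, at 1.95 and 1.80, lie below the 3 WT ones.

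Tcf3 produces its 2 best known proteins, E12 and E47, from a pair of mutually exclusive exons that each encode a bHLH region. They are shown because the counts can be divided between them. Both are exon 18 of 19 on the minus strand of GRCm38, at chr10:80412827-80413062 (E12) and chr10:80410398-80410624 (E47), within the coding part. Capitals mark bases that differ in the alignment of the exons or have no partner in it. The exons are identical in 77.1% of 227 aligned columns.

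E12 exon of Tcf3: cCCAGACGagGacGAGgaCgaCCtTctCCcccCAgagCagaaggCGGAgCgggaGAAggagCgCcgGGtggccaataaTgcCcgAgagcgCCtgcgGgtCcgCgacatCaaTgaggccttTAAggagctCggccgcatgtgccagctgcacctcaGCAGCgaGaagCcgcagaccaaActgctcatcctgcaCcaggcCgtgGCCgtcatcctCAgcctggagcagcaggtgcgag
E47 exon of Tcf3: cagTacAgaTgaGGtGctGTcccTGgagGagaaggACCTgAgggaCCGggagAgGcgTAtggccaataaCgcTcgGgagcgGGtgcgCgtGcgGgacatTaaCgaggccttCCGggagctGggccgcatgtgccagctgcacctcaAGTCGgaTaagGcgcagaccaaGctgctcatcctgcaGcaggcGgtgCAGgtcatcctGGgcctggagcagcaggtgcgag

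Of the annotated Tcf3 transcripts, 4 held the E12 exon and 7 the E47 exon, and together they carried at least 84.5% of Tcf3 TPM in every library. This division was chosen after the data were seen. The E12 exon made up 24.2%, 26.2% and 23.6% of that TPM in WT myoblasts, 20.5%, 17.3% and 19.2% in WT differentiated myotubes, and 39.3%, 32.0%, 29.9% and 31.7% in WT fused myotubes. The E12 share was at most 39.3% in a WT library, so E47 forms were the majority in each. The WT stages did not overlap, with the lowest shares in differentiated myotubes, which differed from the myoblasts by -5.68 percentage points (exact two-sided permutation test, p = 0.10, the smallest possible with 3 against 3, and 0.300 adjusted). The fused libraries differed from the myoblasts by 8.56 percentage points (exact two-sided permutation test, p = 0.0571, the smallest possible with 4 against 3, and 0.257 after Benjamini-Hochberg adjustment over 9 comparisons), and by 6.53 without WT fused replicate 1, at 39.3%.

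The KO-labelled stages overlapped in this share. They held 26.1%, 26.7% and 23.4% in myoblasts, 18.6% and 26.3% in differentiated myotubes, and 33.9%, 31.5%, 35.5% and 17.2% in fused myotubes. The fused groups of the 2 labels differed by -3.74 percentage points, KO-labelled minus WT (exact two-sided permutation test, p = 0.543, smallest possible 0.0286). Without KO-labelled fused replicate 4, at 17.2%, the KO-labelled fused libraries lay above the KO-labelled myoblasts, and the difference between those stages was 8.20 percentage points in place of 4.11. Without that library the label difference in fused myotubes was 0.359, and without WT fused replicate 1 it was -1.71. Division of estimated counts between transcripts of 1 gene is an inference from reads that differ only in short stretches.

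**Figure D4:**
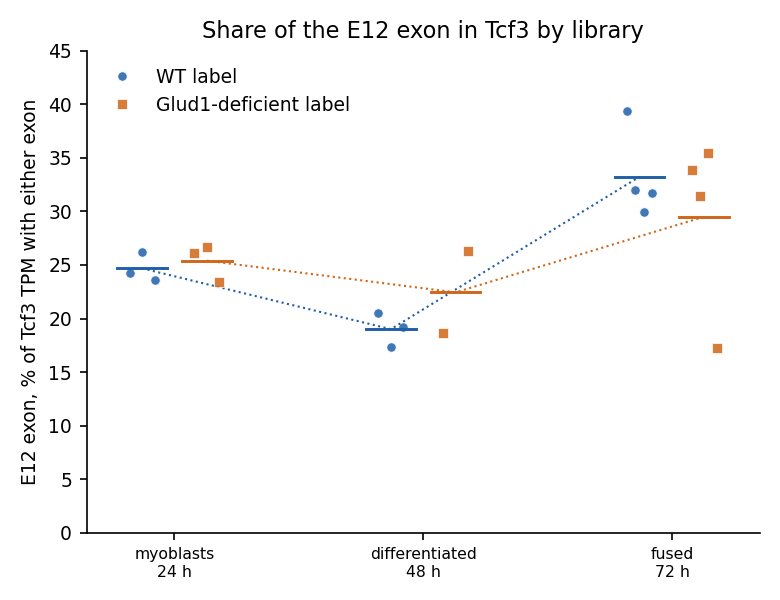
Share of the E12 exon in the TPM of Tcf3 transcripts with either exon (vertical axis, percent) in each library by stage (horizontal axis), with group means as short bars joined by dotted lines. The WT stages are separate, and 1 KO-labelled fused library, at 17.2%, lies below its group.

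Single transcripts of Tcf3 and Tcf12 with a mean share of at least 10% of their gene were also compared between fused myotubes and myoblasts. None of the 12 comparisons was called, with adjusted p-values of 0.685 to 1 (exact two-sided permutation tests, 0.0571 the smallest p possible). The transcript Tcf4-202 held 50.3% to 56.7% of Tcf4 TPM as a group mean in all 6 groups, including the groups between which the level of Tcf4 rose. Transcripts below the 10% mean were not tested. Among them, Tcf4-207 held 4.01% to 7.74% of Tcf4 TPM in WT myoblasts and 9.50% to 13.4% in WT fused myotubes (3.83% to 7.10% and 11.4% to 12.8% in KO-labelled libraries). Tcf12-216 held 0% to 2.19% of Tcf12 TPM in WT myoblasts and 3.77% to 14.1% in WT fused myotubes (0% to 3.87% and 8.73% to 10.2% in KO-labelled libraries). Neither transcript's ranges overlapped between these stages, and both were named after their values were seen.

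RefSeq's table of promoters for GRCm38.p6 held entries for 5 of the 8 members: Id2, Id3, Tcf3, Tcf12 and Twist1. The 250 bases before each start were searched on both strands for the E-box CANNTG, the GC-rich Smad motif GGCGCC and the CCAAT box CCAAT. Promoters of 3 genes with a steep first step are shown, each cut where an annotated exon of the gene begins, with the motifs in capitals. The Id2 stretch lies at chr12:25096254-25096342 (minus strand), that of Tcf3 at chr10:80433648-80433885 (minus strand) and that of Twist1 at chr12:33957421-33957670 (plus strand). The Id2 stretch lies inside the annotated gene, which runs to 25097140. It is thus upstream of the start in the promoter table but not of the whole gene.

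Id2 promoter: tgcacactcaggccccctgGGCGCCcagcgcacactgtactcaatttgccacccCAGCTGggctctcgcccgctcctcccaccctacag
Tcf3 promoter: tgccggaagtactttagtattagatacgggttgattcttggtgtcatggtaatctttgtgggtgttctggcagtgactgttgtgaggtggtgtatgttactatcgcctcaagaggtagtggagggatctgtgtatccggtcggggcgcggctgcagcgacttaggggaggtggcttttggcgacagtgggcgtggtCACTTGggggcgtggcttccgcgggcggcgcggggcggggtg
Twist1 promoter: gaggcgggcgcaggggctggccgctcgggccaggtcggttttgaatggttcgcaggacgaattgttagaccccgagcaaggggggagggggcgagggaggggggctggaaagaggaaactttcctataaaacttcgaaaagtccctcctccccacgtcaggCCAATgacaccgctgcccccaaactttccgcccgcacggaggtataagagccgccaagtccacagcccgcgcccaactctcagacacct

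Id2 had 1 E-box at -196, 1 GC-rich Smad motif at -231 and 3 CCAAT boxes, which lie in annotated exon sequence not shown. Tcf3 had 1 E-box at -54 and neither other motif. Twist1 had 1 CCAAT box at -89 and no E-box, and the Id3 window held none of the 3 motifs. Tcf12 has 3 start sites in the table, and its windows held 2 E-boxes, at -240 and -149 of different starts, and 2 CCAAT boxes, at -238 and -118 of the third. Among 32851 promoters of the same length, 66.2% held the E-box, 9.59% the GC-rich Smad motif and 33.8% the CCAAT box. No searched motif was held by all 5 of these genes.

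The genotype labels differed most at the middle stage, where RNA of all 3 Id genes, Tcf3 and Tcf12 was lower in the KO-labelled libraries. In differentiated myotubes, 5 of 7 tested members fell in KO-labelled against WT libraries, none rose and 2 were not called, where 25.2% of all genes tested were called (11% higher, 14.1% lower). The median log2 fold change of the 7 was -0.32, against -0.0117 over all genes tested. Higher genes were 43.9% of all calls there, 66.0% with a trend with length and GC content removed (4 members called, all lower) and 27.0% with library size alone (6 members called, all lower). In myoblasts 1 member fell and 6 were not called (11.6% of all genes called, 4.86% higher and 6.69% lower; leaving out WT replicate 3 took the 1747 calls to 925, and leaving out replicate 3 or 1 of the KO label to 1067 or 1144), and in fused myotubes 1 rose and 6 were not called (13% called, 6.32% higher and 6.72% lower). All 3 comparisons share libraries with the stage comparisons above.

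Id3 had the largest called difference at the middle stage. The KO-labelled differentiated libraries held 74.3 and 76.5 CPM of Id3, both below the 103 to 119 CPM of the WT ones. The log2 fold change was -0.53 ± 0.060 (edgeR adjusted p 1.61e-07). In myoblasts the KO-labelled values of 328 to 341 CPM lay within the WT range of 308 to 345 (0.0073 ± 0.046, edgeR adjusted p 0.949). In fused myotubes the order turned, with 24.3, 23.2, 24.5 and 22.6 CPM in KO-labelled libraries, all above the 18.8 to 20.9 CPM in WT (0.26 ± 0.065, edgeR adjusted p 0.00835).

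Id2 and Id1 were lower at the middle stage as well. The KO-labelled differentiated libraries held 25.1 and 26.2 CPM of Id2, below the 33.3 to 34.5 CPM of WT (log2 fold change -0.40 ± 0.079, edgeR adjusted p 0.000365). They held 64.0 and 59.1 CPM of Id1, below the 71.8 to 89.4 CPM of WT (-0.37 ± 0.072, edgeR adjusted p 0.000381). Neither gene passed the threshold in myoblasts (edgeR adjusted p 0.947 and 0.737) or in fused myotubes (0.158 and 0.874). Without WT fused replicate 2, the Id2 difference in fused myotubes passed the threshold (-0.29, edgeR adjusted p 0.0282).

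Tcf3 was at 38.4 and 42.1 CPM in the KO-labelled differentiated libraries, below the 45.9 to 52.2 CPM of WT (-0.28 ± 0.070, edgeR adjusted p 0.00370). The call was lost without KO-labelled differentiated replicate 1, the lower of the pair (-0.21, edgeR adjusted p 0.104). Tcf12 was at 134 and 135 CPM against 148 to 156 CPM in WT (-0.16 ± 0.042, edgeR adjusted p 0.00603). Its call was lost under the effective-length offset (-0.075, edgeR adjusted p 0.285), after removal of a trend with length and GC content (-0.046, edgeR adjusted p 0.341) and without KO-labelled differentiated replicate 1 (-0.16, edgeR adjusted p 0.0545).

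Tcf4 differed at another stage. In myoblasts it was at 61.3, 60.7 and 61.7 CPM in KO-labelled libraries, below the 73.9 to 76.0 CPM of WT (log2 fold change -0.29 ± 0.037, edgeR adjusted p 3.18e-06). Other lists differed between the labels in myoblasts, where 11.6% of all genes were called: 5 of 8 myogenic markers fell, with Acta1 at a mean of 255 CPM in KO-labelled and 437 in WT libraries, 3 of 5 tested pericyte or smooth muscle markers fell and 2 of 6 proliferation genes rose. Their part in the Tcf4 difference was not tested. Tcf12 in myoblasts was at 172 to 179 CPM in KO-labelled and 185 to 193 CPM in WT libraries (-0.093 ± 0.036, edgeR adjusted p 0.0956), a difference called under 4 of the alternatives. These were the fit of those 6 libraries alone (-0.11, edgeR adjusted p 0.0201), the effective-length offset (-0.18, edgeR adjusted p 0.00731), DESeq2 size factors (-0.11, edgeR adjusted p 0.0398) and DESeq2's own test (-0.11, DESeq2 adjusted p 0.0169). For Tcf4 in differentiated and fused myotubes the differences were -0.067 ± 0.039 (edgeR adjusted p 0.224) and -0.047 ± 0.030 (edgeR adjusted p 0.360). Twist1 was not called at any stage, and its 95% interval in differentiated myotubes ran from -0.99 to 0.36, on 10 to 20 estimated counts a library.

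**Figure D5:**
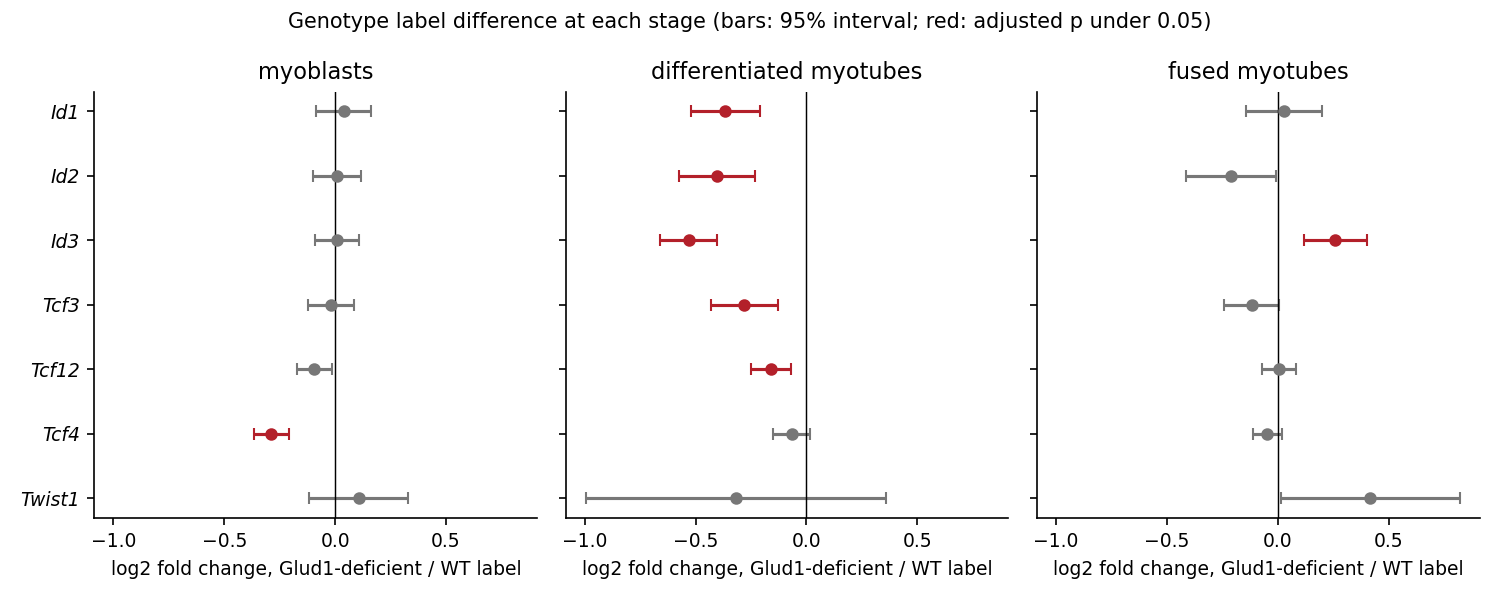
Log2 fold change of KO-labelled against WT libraries (horizontal axis, points) with its 95% interval (bars) for the 7 tested genes at each stage, red where the edgeR adjusted p was under 0.05. Id1, Id2, Id3, Tcf3 and Tcf12 lie below 0 in differentiated myotubes, Tcf4 in myoblasts, and Id3 lies above 0 in fused myotubes.

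Whether the label difference itself changed with stage was tested as an interaction. From myoblasts to differentiated myotubes the label difference moved down in 4 of 7 members, Id3, Id2, Id1 and Tcf3, and up in Tcf4, where 19.1% of all genes tested were called (7.78% up, 11.3% down). From differentiated to fused myotubes it moved up in 3, Id3, Id1 and Tcf12, where 14.8% were called (8.27% up, 6.53% down). Between fused myotubes and myoblasts it was higher at the fused stage in 2, Id3 and Tcf4, where 10.3% were called (5.75% up, 4.55% down). The balance of all calls depended on the scaling: from differentiated to fused myotubes, upward calls were 55.9% of the total, 75.0% with library size alone and 33.7% with the length and GC trend removed.

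Other measures also differed between the labels at the middle stage. Of 6 proliferation genes, 4 fell and 1 rose in KO-labelled against WT differentiated myotubes, with a median log2 fold change of -1.19, where 25.2% of all genes were called (11% higher, 14.1% lower). Mki67, a marker of cycling cells, fell by 2.55, at 0.588 and 0.996 CPM in KO-labelled against 4.09 to 5.07 in WT libraries. Top2a, which untangles replicated DNA, fell by 2.45, at 1.60 and 1.15 CPM against 6.1 to 8.66. These levels are low beside WT myoblasts, at 182.1 to 216.5 CPM of Mki67 and 380.8 to 404 of Top2a. Mcm2, the gene that rose, was at 18.0 and 19.3 CPM in KO-labelled and 13.3 to 16.4 in WT libraries. The 6 macrophage or leukocyte markers summed to 24.5 to 28.1 CPM in KO-labelled and 15.7 to 18.6 CPM in WT differentiated libraries, a sum in which 1 gene, Itgam, was above 1 CPM, while the leukocyte marker Ptprc had at most 7 counts in a differentiated library. Of 5 tested pericyte or smooth muscle markers, 1 rose and 2 fell, against the same background. Of 8 myogenic markers, 1 rose, 3 fell and 4 were not called, with a median log2 fold change of 0.0344. Among them Pax7, a marker of muscle stem cells and myoblasts, had a mean of 5.63 CPM in KO-labelled and 10.6 CPM in WT differentiated libraries. Mymk, from the same list, had the opposite order, with means of 2110 CPM in KO-labelled and 1750 CPM in WT differentiated libraries. The part of these measures in the Id and E protein differences was not tested.

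The myogenic partners of the E proteins were read beside them. In WT libraries Myog rose by 4.44 ± 0.075 on the log2 scale from myoblasts to differentiated myotubes (edgeR adjusted p 3.11e-27) and Myf6 by 4.22 ± 0.10, and over that step Tcf3, Tcf12 and the Id genes fell. In KO-labelled against WT differentiated myotubes, 3 of the 4 myogenic bHLH genes fell, where 25.2% of all genes were called: Myod1 (-0.31 ± 0.056), Myf6 (-0.28 ± 0.073) and Myf5 (-0.19 ± 0.057). Myog was at -0.0087 ± 0.071 (edgeR adjusted p 0.951). In myoblasts Myog was the 1 of the 4 that fell (11.6% of all genes called), from 104 to 119 CPM in WT to 64.6 to 82.5 CPM in KO-labelled libraries (-0.63 ± 0.071, edgeR adjusted p 4.11e-07). In fused myotubes Myf6 (-0.45 ± 0.043) and Myf5 (-0.31 ± 0.040) fell (13% called).

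A wider list of 25 other bHLH partners and inhibitors had 17 tested genes. Over the WT course 7 rose and 7 fell, where 85.5% of all genes were called, with a median log2 fold change of -0.00175 against -0.0126 over all genes. Snai2, a repressor that binds E-boxes, fell by 4.94 ± 0.089, and Mdfic, a MyoD family inhibitor protein, fell by 1.80 ± 0.077. Bhlhe40, a bHLH repressor, rose by 3.21 ± 0.062 and Scx, a tendon bHLH factor, by 1.57 ± 0.072. Zeb1, a zinc-finger repressor at E-boxes, rose from a mean of 26.9 to 124 CPM (edgeR adjusted p 2.33e-24). In KO-labelled against WT differentiated myotubes none rose and 4 fell, namely Sim2 (-1.10 ± 0.17), Hes1 (-0.89 ± 0.10), Snai2 (-0.86 ± 0.13) and Bhlhe40 (-0.31 ± 0.087). These 4 calls among 17 genes are near the 25.2% called among all genes. In myoblasts none rose and 4 fell (11.6% of all genes called), and in fused myotubes 3 rose and 2 fell (13% called).

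The BMP and Smad list had 29 tested genes of 36. Over the WT course 13 rose and 15 fell, where 85.5% of all genes were called (42.2% higher, 43.4% lower), with a median log2 fold change of -0.34 against -0.0126 over all genes. Among the falls were those of the follistatin-like gene Fstl1 (-8.27 ± 0.087) and of the secreted BMP antagonist Grem1 (-7.03 ± 0.094). Other genes of the list went up: from WT differentiated to WT fused myotubes, the receptor gene Bmpr1b rose by 3.14 ± 0.12 (edgeR adjusted p 2.09e-18). Over the whole WT course, the inhibitory Smad genes Smad7 and Smad6, themselves known BMP targets, fell by 2.57 ± 0.071 and 1.97 ± 0.12. Atoh8, another known target, fell by 3.44 ± 0.076. The decoy receptor gene Bambi rose by 2.35 ± 0.24 from WT differentiated to WT fused myotubes (edgeR adjusted p 1.15e-09). In KO-labelled against WT differentiated myotubes 1 gene of the list rose and 11 fell, where 11% of all genes tested were called higher and 14.1% lower. The list's median was -0.20, against -0.0117 over all genes.

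At the middle stage, Fstl1 was at 4.58 CPM in KO-labelled against 26.4 in WT differentiated libraries as a mean (-2.53 ± 0.11, edgeR adjusted p 1.96e-15), and Grem1 at 0.529 against 1.90 (-1.82 ± 0.26, edgeR adjusted p 8.30e-06). The ligand gene Gdf6 differed by -1.09 ± 0.11, and by as much in myoblasts (-1.11 ± 0.10, edgeR adjusted p 8.29e-09). Bambi, a decoy receptor, rose by 0.97 ± 0.34 (edgeR adjusted p 0.0353), the receptor gene Bmpr1b fell by 0.79 ± 0.25 (edgeR adjusted p 0.0183) and the antagonist gene Nog by 0.75 ± 0.19. Of the known BMP targets, Smad6 fell by 0.58 ± 0.16 (edgeR adjusted p 0.00654), while Smad7 (-0.040 ± 0.089, edgeR adjusted p 0.795) and Atoh8 (-0.093 ± 0.073, edgeR adjusted p 0.390) were not called. In fused myotubes 4 of the 29 rose and none fell, among them Smad7 (0.32 ± 0.091) and Gdf6 (0.30 ± 0.073), where 13% of all genes were called. In myoblasts 1 rose and 5 fell, where 11.6% were called.

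For each member, the genes whose log2 CPM over the 19 libraries was most like its own were taken from 8786 or 8787 genes with a mean of at least 10 CPM. These likenesses are descriptions in which stage differences dominate. Id3 was most like Robo1 and Ywhab (Pearson r 0.998 each), Id2 like Actb (0.998), and Id1 like Atxn7l3b and Tnfrsf12a (0.995 each). Tcf3 was most like Fam129b (0.998), Tcf12 like Dcbld2 (0.995), and Twist1 like Fam171a1 (0.991). Tcf4 was most like Frmpd1 (0.997), the membrane skeleton gene Ank1 (0.997) and Myom1 (0.996), which encodes a protein of the sarcomeric M-band.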

How the data were processed

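Libraries were prepared from messenger RNA (Illumina TruSeq), per the labels' protocols. The authors deposited kallisto estimated counts and TPM values for 121843 transcripts a library, per the file headers. The submitters' processing notes name bcl2fastq 2.20, fastp 0.20.0, kallisto 0.46.1, edgeR 3.36 and build GRCm38.p6. Transcripts were assigned to genes with GENCODE M21 (121018 matched, and 825 without a match were left out), summed and rounded. Whether counting used strand is not stated.

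Counts were tested with edgeR 4.0.16 (R 4.3.3) in 1 fit over 6 groups and 19 libraries, after filterByExpr and TMM scaling, with 12 comparisons and an adjusted p under 0.05 as the threshold. The fit was tested on simulated data. Depth was 16168131 to 30742634 estimated counts a library. Replicates differed by more than sampling noise (chi-square per degree of freedom 2.07 to 7.06), and the common biological coefficient of variation was 4.03%. Deposited TPM values were summed for levels between genes, shares and ratios. Shares were compared by exact permutation tests in scipy 1.17.1.

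Members and gene lists were chosen with earlier results of these data known. All 8 members are named, and list examples are called genes with the largest changes at a mean of at least 1 CPM; Smad6, Smad7 and Atoh8 as BMP targets were named after their values were seen. One gene that this rule names is not reported here. Alternatives were another scaling, library size alone, other filters, a replicate block, an effective-length offset (deposited effective lengths), a length and GC trend, coding transcripts only, fewer libraries, DESeq2 1.42.0 and leaving out each library.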

Additional observations from a re-analysis of the deposited data

Results flagged for a closer look

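The difference between the genotype labels changed with the stage in 10 cases among the 7 members, each by an interaction term in edgeR's quasi-likelihood fit, adjusted over all genes tested. Values are changes in the log2 difference, KO-labelled minus WT.

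From myoblasts to differentiated myotubes, the label difference moved by -0.54 ± 0.075 (SE) for Id3 (adjusted p 7.33e-06), by -0.41 ± 0.094 for Id2 (0.00236), by -0.40 ± 0.092 for Id1 (0.00229), by -0.26 ± 0.085 for Tcf3 (0.0311) and by 0.22 ± 0.053 for Tcf4 (0.00379). For the 3 Id genes both KO-labelled differentiated libraries lay below the 3 WT ones, while the myoblast libraries overlapped. For Tcf4 the labels did not overlap in myoblasts or in differentiated myotubes, and the gap was wider in myoblasts.

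From differentiated to fused myotubes, the label difference moved by 0.79 ± 0.088 for Id3 (adjusted p 5.83e-07), by 0.39 ± 0.11 for Id1 (0.0127) and by 0.17 ± 0.055 for Tcf12 (0.0424). Id3 was the member whose called difference turned from lower to higher in KO-labelled libraries. Between fused myotubes and myoblasts, the label difference was higher at the fused stage by 0.25 ± 0.080 for Id3 (adjusted p 0.0424) and by 0.24 ± 0.048 for Tcf4 (0.00119).

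The Tcf3 value from myoblasts to differentiated myotubes, the Tcf12 value from differentiated to fused myotubes and the Id3 value between fused myotubes and myoblasts each lost the threshold under several alternatives, with adjusted p-values of up to 0.216, 0.395 and 0.191. The Id1 value from differentiated to fused myotubes lost it without KO-labelled differentiated replicate 2 (0.34, adjusted p 0.0784). By the size of its gap to the nearest library relative to its group's range (Dixon's criterion), no library was set apart in the 20 groups of 4 libraries examined. For the Tcf3 E12 share, the WT fused library at 39.3% and the KO-labelled fused library at 17.2% came short of the critical value used. Their gaps were 0.780 and 0.778 of the range, and this outcome depends on the level chosen for the critical value.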

How the results depend on the processing

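Of 1505 values of the 84 member tests under 10 alternative settings and with each of 19 libraries left out, 1401 kept direction and side of the threshold. Of the 637 values for the 39 called stage changes, 632 did. The exceptions were the Twist1 rise in WT named in the report, also with the length and GC trend removed (0.50, adjusted p 0.0514), and Tcf12 between KO-labelled myoblasts and differentiated myotubes, which that removal brought to -0.057 (adjusted p 0.117). With library size alone, the median log2 fold change of all genes from WT myoblasts to WT fused myotubes was -0.33, against -0.0126.

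Within a stage, replicate numbers did not pair WT with KO-labelled libraries. Correlations of deviations ran from -0.0506 to 0.0292 over 9 same-numbered pairs and from -0.0555 to 0.0524 over 22 other pairs. Pairing across the stages of 1 label was not examined. A replicate block ended 1 call, the Tcf12 interaction from differentiated to fused myotubes (0.163, adjusted p 0.0592).

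Counts of called members changed as follows. In myoblasts KO-labelled against WT gave 2 with DESeq2 size factors, the effective-length offset, the compared libraries alone or DESeq2's test. Without 1 library the counts were 3 to 5 in differentiated myotubes (3 without KO-labelled replicate 1), 1 to 2 in fused myotubes, 1 to 4 for the differentiated-to-fused interaction and 1 to 2 for the fused-to-myoblast one, which was also 1 with coding transcripts only. Over all genes, the effective-length offset gave 589, 2150 and 822 label calls in place of 1747, 3810 and 1972 over the 3 stages. In myoblasts it was 1055 with coding transcripts only, 2625 with the compared libraries alone, and 925, 1144 and 1067 without WT replicate 3 or KO-labelled replicate 1 or 3. Higher genes made up 42.1% of the label calls in myoblasts, 29.3% with DESeq2 size factors, 27.5% with DESeq2's test, 19.2% with the offset, 31.8% with coding transcripts only and 57.0% with the trend removed. In differentiated myotubes they made up 43.9%, 27.0% with library size alone and 66.0% with the trend removed. For the interactions (differentiated minus myoblasts, fused minus differentiated, fused minus myoblasts) the offset gave 1456, 980 and 667 calls in place of 2890, 2238 and 1557. Upward calls were 40.7% of the first, 50.8% with DESeq2 size factors, 52.4% with DESeq2's test, 26.3% with library size alone and 57.1% with the trend removed. They were 55.8% of the last, 65.9% with DESeq2 size factors or its test and 66.9% with the offset. From KO-labelled myoblasts to differentiated myotubes higher genes were 49.3% of calls, and 38.8% with library size alone. From summed counts the Id to E protein ratio was 1.18, 0.636 and 0.178 in WT and 1.26, 0.511 and 0.191 in KO-labelled stages.

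Signs turned only in uncalled values; the cause was not tested. For Tcf4 from differentiated to fused WT myotubes, DESeq2 size factors gave -0.0096, library size -0.052, a mean of 1 CPM -0.0069, the block -0.0014, the offset -0.062, the compared libraries -0.0092 and DESeq2 -0.0089; left-out libraries gave -0.0035 to 0.027. In KO-labelled libraries DESeq2 size factors gave -0.0019, the offset -0.062 and DESeq2 -0.0019. For Id3 in myoblasts, DESeq2 size factors gave -0.012, the compared libraries -0.0051 and DESeq2 -0.012, and left-out libraries -0.042 to 0.037. For Id2 they gave -0.011, -0.0041, -0.011 and -0.019 to 0.036. Removing the trend gave -0.064 for Id2 and 0.051 for Tcf3 in myoblasts (left-out libraries -0.043 to 0.016), 0.080 for Tcf4 in differentiated myotubes, -0.0016 for Id1 (-0.037 to 0.079) and 0.010 for Tcf4 in fused myotubes. Tcf12 there ranged from -0.0099 to 0.030. For interactions, Tcf12 from myoblasts to differentiated gave 0.11 (offset) and 0.034 (trend), Tcf4 from differentiated to fused -0.070 (trend) and -0.018 to 0.057, and Id1 between fused and myoblasts 0.011 (DESeq2 size factors), 0.014 (DESeq2) and -0.077 to 0.040.

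Transcript shares of WT fused minus myoblasts, in percentage points, ranged without 1 library from -3.14 to 0.831 for transcript 201 of Tcf12, -4.85 to 5.47 for transcript 206 of Tcf3 and -0.660 to 3.02 for transcript 221 of Tcf12 (-1.74 from counts). In KO-labelled libraries they ranged from -5.78 to 0.0273 for transcript 205 and -5.42 to 0.813 for transcript 207 of Tcf3. The Tcf3 E12 share of KO-labelled minus WT fused myotubes ranged from -5.73 to 0.359. Low counts limit Twist1 and Msc.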
